A study of Mus musculus with 9 samples.

Results

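T-cell costimulatory and checkpoint genes were followed as a set of 7, Cd40, Cd80, Cd86, Cd274, Icosl, Lgals9 and Tnfsf9, named by symbol and matched to the Ensembl identifiers of a table of 53465 mouse genes. All 7 were found, and all 7 passed the filter on low counts that left 12610 genes for testing. Read counts came from poly(A) RNA of 9 libraries in 3 groups of 3. Lining macrophages (A, B and C) were CD45+CD11b+F4/80+GFP+ cells and interstitial macrophages (D, E and F) CD45+CD11b+F4/80+GFP- cells, each sorted from synovial tissue of the hind paws of healthy Cx3cr1-GFP mice, in which green fluorescent protein reports the fractalkine receptor gene. Bone marrow-derived macrophages (BMDM; G, H and I) were grown from C57BL/6 marrow for 5 days in MCSF-conditioned medium. The labels do not give zygosity of the reporter, age, sex, or whether the libraries of a group are separate animals, so p-values measure only the spread between these libraries, which may be technical. BMDM differ from the sorted cells at once in strain, tissue, culture, handling and read depth, which cannot be told apart.

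A naive T cell needs a second signal beside its antigen receptor, and antigen-presenting cells supply it. CD80 and CD86 engage CD28 to activate T cells and CTLA-4 to restrain them. CD40 is the receptor through which a macrophage receives CD40 ligand from an activated T cell, and it signals through TRAF adaptors to NF-kappaB. ICOS ligand and 4-1BB ligand (Tnfsf9) add later costimulation, while PD-L1 (Cd274) binds PD-1 and galectin-9 (Lgals9) binds TIM-3, both described as brakes on T cells.

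Total counts ranged from 2194920 to 11137451 in the sorted libraries and from 19427273 to 22499823 in BMDM. Levels are counts per library scaled by TMM factors, in CPM. A floor of 3 counts corresponded to 0.273 to 1.45 CPM in a sorted library and to 0.130 to 0.149 in BMDM, and covers counting error only. Cx3cr1, which defined the sort, stood at 708 ± 59.0 CPM in lining, 4.93 ± 2.66 in interstitial macrophages and 278 ± 38.2 in BMDM (mean ± SD, n = 3 per group). Interstitial D stood apart from the other sorted libraries by its 0 counts of Xist, the RNA of the inactive X chromosome, against 96.0 to 269 CPM in the other 5. BMDM had 0 to 3 counts of Xist per library. All sorted libraries but interstitial D thus also differ from BMDM in Xist, and interstitial D differs in it from interstitial E and F. The part of Xist in the comparisons was not tested. Summed levels of 7 dendritic cell markers were 6.79 to 42.8 CPM in lining, 93.7 to 141 in interstitial libraries and 4.19 to 4.97 in BMDM. Xcr1 was at 0 in lining and Clec9a at 0 in interstitial. Summed levels of 8 T-cell markers were 0.751 to 6.87, 9.31 to 39.1 and 1.34 to 2.12 CPM, with Cd3g, Trbc2 and Cd5 at 0 in lining and Cd3e, Cd3g and Trbc2 at 0 in interstitial. Summed macrophage markers (8 genes) were 9376 to 10979 CPM in lining, 6480 to 9620 in interstitial libraries and 5166 to 5437 in BMDM. In bulk RNA, fewer cells of a type and less RNA per cell cannot be told apart.

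The upstream sequences of the 4 members with an entry in the RefSeq promoter table (GRCm38.p6) are shown as 2 pairs, since Icosl with Lgals9 and Cd80 with Cd274 were the pairs of members with the most similar profiles over the 9 libraries. Each runs 5′ to 3′ on the gene's own strand from 250 bases before the RefSeq start, and stops before the first exon of the count table, which removed 66 bases for Icosl and 22 for Lgals9. Capitals mark matches, on either strand, to the kappa B consensus bound by NF-kappaB, the interferon-stimulated response element core (GAAA, then any 2 bases, then GAAA), the GAS element of STAT factors (TTCNNNGAA) or the PU.1 core (GAGGAA), none of which overlapped another here.
Icosl, chr10:78069118-78069301, plus strand: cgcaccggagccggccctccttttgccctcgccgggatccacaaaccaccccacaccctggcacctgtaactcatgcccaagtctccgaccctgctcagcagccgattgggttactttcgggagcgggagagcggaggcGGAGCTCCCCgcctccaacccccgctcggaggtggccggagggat
Lgals9, chr11:78984947-78985174, minus strand: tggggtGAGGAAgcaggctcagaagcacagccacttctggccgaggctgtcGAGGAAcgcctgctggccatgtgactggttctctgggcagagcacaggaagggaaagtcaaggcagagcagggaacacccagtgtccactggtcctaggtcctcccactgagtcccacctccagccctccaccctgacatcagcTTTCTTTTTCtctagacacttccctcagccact
Cd80, chr16:38458683-38458932, plus strand: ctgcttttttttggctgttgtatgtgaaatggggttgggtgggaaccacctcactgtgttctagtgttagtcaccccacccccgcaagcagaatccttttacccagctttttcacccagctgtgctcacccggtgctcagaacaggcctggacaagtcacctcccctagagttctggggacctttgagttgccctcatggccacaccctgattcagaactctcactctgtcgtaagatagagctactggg
Cd274, chr19:29367188-29367437, plus strand: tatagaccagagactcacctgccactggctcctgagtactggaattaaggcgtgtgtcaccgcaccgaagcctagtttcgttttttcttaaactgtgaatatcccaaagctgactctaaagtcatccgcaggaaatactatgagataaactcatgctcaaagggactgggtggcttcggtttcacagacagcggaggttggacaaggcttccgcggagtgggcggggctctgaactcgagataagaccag
The Icosl window held 1 kappa B match, found in 5.16% of 32841 promoter windows cut to the same 184 bases. The Lgals9 window held 1 response element core, found in 2.70% of windows of 228 bases. It also held 2 PU.1 cores, where 21.2% of those windows held at least 1. None of the 4 motifs was in the Cd80 or Cd274 window, where 250 bases hold them in 2.98% (response element), 7.02% (GAS), 7.25% (kappa B) and 23.3% (PU.1) of all windows. Base composition differed, with 67.9% G and C and 15 CpG for Icosl, 58.8% and 3 for Lgals9, 52.8% and 3 for Cd80 and 50.4% and 11 for Cd274. A match is a description of letters and not a binding site.

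Between the synovial compartments, lining macrophages had more Cd40 and Lgals9 transcript and less Cd86 than interstitial macrophages. Cd40 was 2.32-fold and Lgals9 2.15-fold higher in lining, and Cd86 was 1.78-fold lower. The Cd86 call was lost in 10 of 17 alternative fits, and those of Cd40 and Lgals9 in 0. Cd80, Cd274, Icosl and Tnfsf9 did not pass the test. Thus 2 of 7 members were called higher and 1 lower by edgeR's quasi-likelihood test at an adjusted p under 0.05, beside 5.79% of all tested genes called in either direction (3.74% higher and 2.05% lower). The members' median log2 fold change was -0.58, and that of all tested genes was -0.01. The members' median is the value of Tnfsf9, which changed sign without interstitial F (0.27). For 4 members (Cd40, Cd80, Cd86 and Lgals9) the lining and interstitial libraries did not overlap, as for 18.6% of tested genes.

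**Figure D1:**
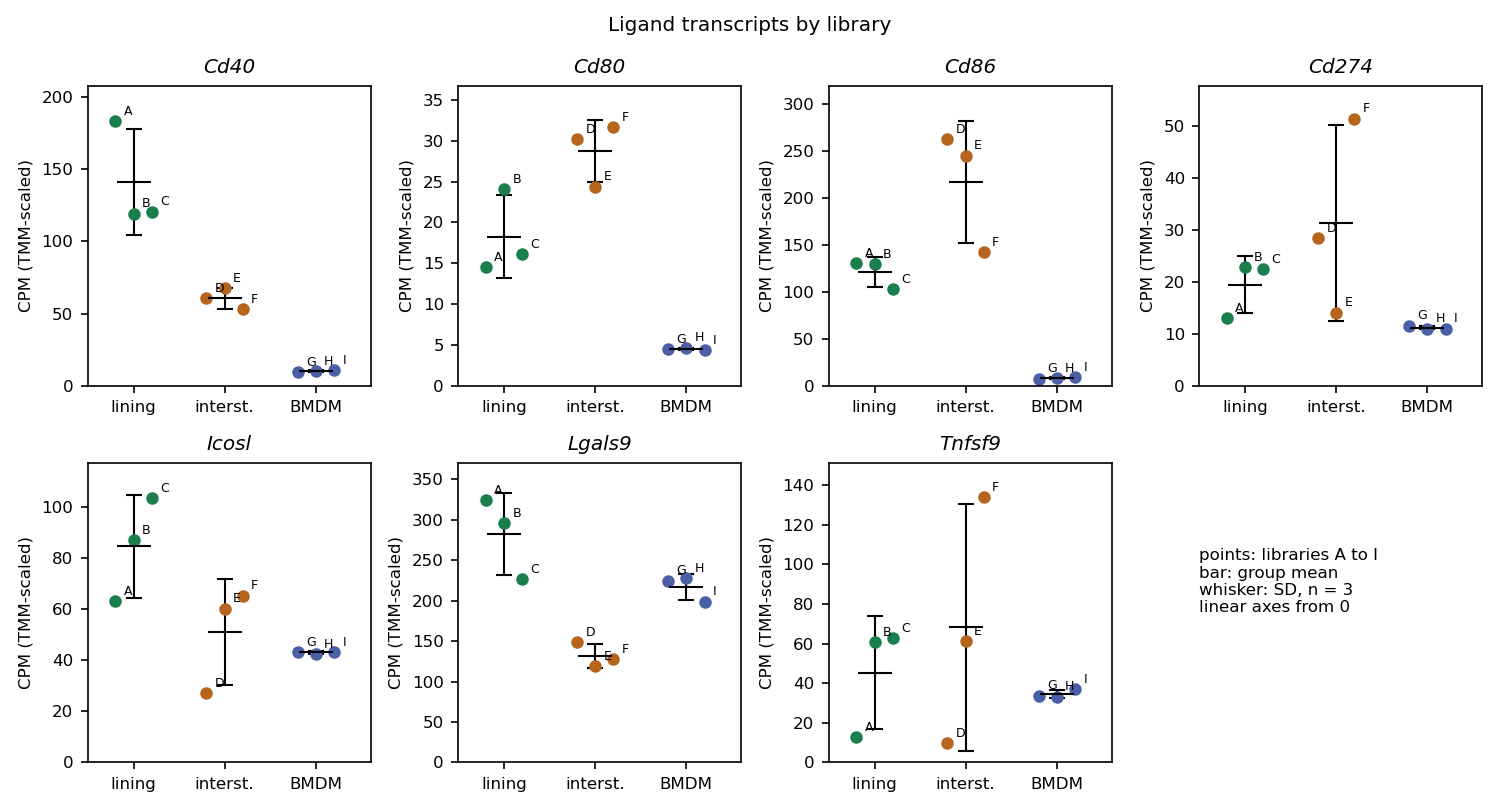
TMM-scaled CPM of the 7 genes (y axes, linear from 0) in lining, interstitial and BMDM libraries, with each library as a lettered point and the group mean and SD (n = 3) as a bar and whisker. Cd40, Cd80 and Cd86 lie lowest in every BMDM library, Lgals9 lowest in the 3 interstitial libraries, and Tnfsf9 is spread from 9.75 to 134 CPM among the sorted libraries.

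Against cultured macrophages, the CD28 ligands and Cd40 were higher in both sorted groups. Cd86 was 14.3-fold higher in lining and 25.5-fold higher in interstitial macrophages than in BMDM, Cd40 13.5-fold and 5.84-fold, and Cd80 4.11-fold and 6.33-fold. Of the 7 members, edgeR called 4 higher in lining (Cd40, Cd80, Cd86 and Icosl) and 0 lower, and DESeq2 and limma-voom each called 5 higher (Lgals9 in addition) and 0 lower. Unadjusted, 5 members had an edgeR p under 0.05 and those 5 were the higher ones that DESeq2 called. In all tested genes edgeR called 23.1% higher and 20.5% lower, 43.5% in all. Of the same 12610 genes DESeq2 called 3245 higher and 2759 lower, and limma-voom 3324 and 3346. In interstitial macrophages 4 were called higher (Cd40, Cd80, Cd86 and Cd274) and 1 lower (Lgals9), beside 23.4% and 21.3% of all tested genes, 44.8% in all. The members' median log2 fold change was 0.98 in lining and 1.47 in interstitial macrophages, against 0.00 and -0.01 over all tested genes. Lining and BMDM libraries did not overlap for 5 members, as for 63.1% of tested genes, and interstitial and BMDM libraries for 5, as for 62.2%. Summed fibroblast markers (6 genes) were 147 to 618 CPM in the sorted libraries and 1.56 to 2.35 in BMDM, with 6 of 6 called higher in each sorted group. Summed neutrophil markers (9 genes) were 0 to 5.92 CPM in lining, 0, 69.5 and 82.0 in interstitial D, E and F, and 43.7 to 55.9 in BMDM. Summed endothelial markers (6 genes) were 30.4 to 41.7 CPM in lining, 60.7, 45.1 and 135 in interstitial D, E and F, and 139 to 146 in BMDM. Of the 5 dendritic cell markers tested, edgeR called 3 higher in lining than in BMDM (Flt3, Zbtb46 and Cd209a) and 0 lower. In interstitial macrophages it called 4 higher (Ccr7 in addition) and 0 lower. The part of any of these markers in the members' differences was not tested. The comparisons with BMDM share the BMDM libraries, and their values are given side by side.

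**Figure D2:**
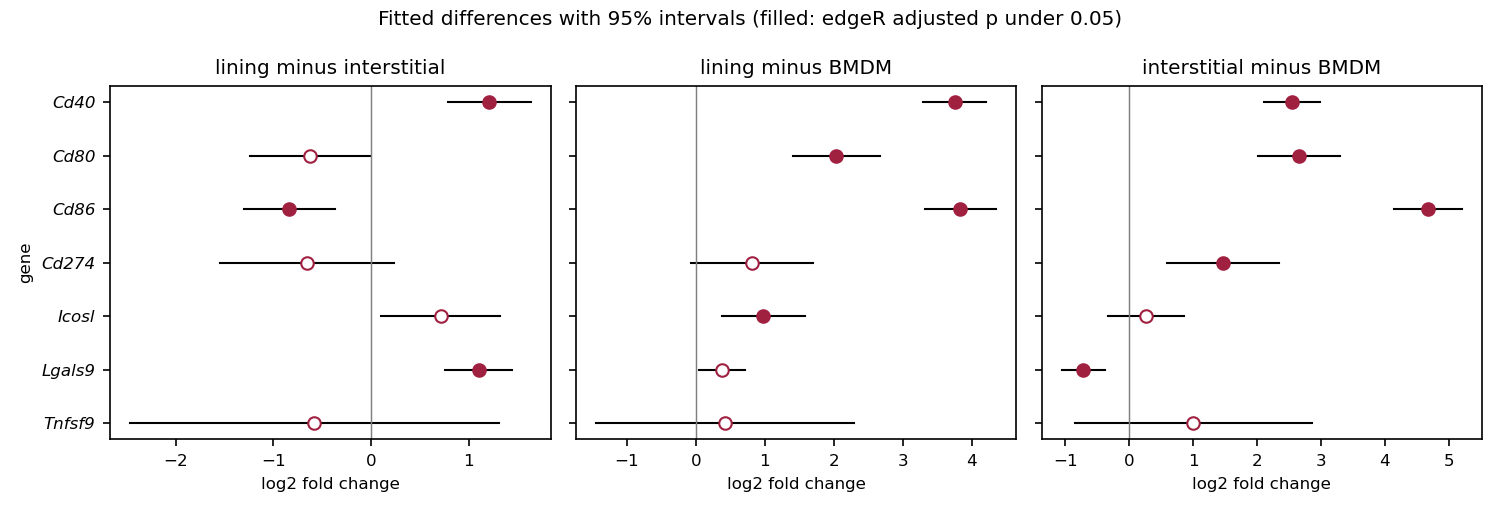
Fitted log2 fold changes (x axes) of the 7 genes with 95% intervals for the 3 comparisons, positive where the first-named group was higher, filled where edgeR's adjusted p was under 0.05. In lining minus interstitial, the points of Cd40 (1.21) and Lgals9 (1.10) lie to the right of 0 and that of Cd86 (-0.84) to the left, and the interval of Tnfsf9 is the widest in each panel.

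Cd40, the receptor that macrophages present to CD40 ligand, was ordered lining, interstitial, BMDM (ENSMUSG00000017652, GRCm38 chromosome 2, 165055627 to 165072948, plus strand, 9 merged exons). Its levels were 183, 119 and 121 CPM in lining A, B and C, 60.7, 67.6 and 53.1 in interstitial D to F and 9.77, 10.4 and 10.9 in BMDM G to I. No library of any group overlapped another group's range, with lining A the highest. The lining to interstitial difference was 1.21 ± 0.19 on the log2 scale (SE, edgeR adjusted p = 0.00286). Against BMDM the differences were 3.76 ± 0.21 in lining (edgeR adjusted p = 6.31e-08) and 2.55 ± 0.20 in interstitial macrophages (edgeR adjusted p = 1.14e-06). All 3 calls of Cd40 held in each of 17 alternative fits, with the lining to interstitial value between 0.97 and 1.31. Beside Cx3cr1, whose reporter defined the sort, Fcgr1 and Cd68 of the 8 macrophage markers were also called higher in lining than interstitial, and their part in the result was not tested.

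Cd86, the more constitutive of the CD28 ligands on myeloid cells, lies on chromosome 16 (ENSMUSG00000022901, 36603869 to 36666081, minus strand, 10 merged exons). It measured 131, 130 and 103 CPM in lining A to C, 263, 245 and 142 in interstitial D to F and 7.70, 8.15 and 9.54 in BMDM. Interstitial D and E were high and interstitial F lay just above the highest lining library. The lining to interstitial difference was -0.84 ± 0.21 (edgeR adjusted p = 0.0409). This call of Cd86 was lost in 10 of 17 alternative fits, namely without any of lining A, B or C, interstitial D or E, or BMDM G, H or I, with only the 6 sorted libraries, and without A and D together. Its value stayed between -1.10 (without interstitial F) and -0.70 (without interstitial D), and its adjusted p ranged from 0.00157 to 0.147. Against BMDM the differences were 3.84 ± 0.24 in lining (edgeR adjusted p = 1.45e-07) and 4.67 ± 0.25 in interstitial macrophages (edgeR adjusted p = 3.71e-08), held in each alternative fit. Dendritic cells also carry Cd86, and the summed dendritic cell markers given above were higher in each interstitial library than in each lining library. Of the 5 dendritic cell markers tested, edgeR called 1 (Cd209a) lower in lining, beside 2.05% of all tested genes. Unadjusted, 3 of these markers had an edgeR p under 0.05, and their median log2 fold change was -1.38. The part of these markers in the difference was not tested.

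Cd80, the inducible CD28 ligand, shares chromosome 16 and lies 1793 kb from Cd86 (ENSMUSG00000075122, 38458933 to 38486933, plus strand, 5 merged exons). Levels were 14.5, 24.1 and 16.1 CPM in lining, 30.1, 24.4 and 31.6 in interstitial libraries and 4.50, 4.67 and 4.38 in BMDM. Lining B reached to just under interstitial E, the lowest of its group. The lining to interstitial difference of -0.62 ± 0.28 did not pass (edgeR adjusted p = 0.253, 95% interval -1.24 to -0.01). Both sorted groups were higher than BMDM, by 2.04 ± 0.29 (edgeR adjusted p = 1.45e-04) and 2.66 ± 0.29 (edgeR adjusted p = 1.69e-05), in each alternative fit.

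Set against each other per length (RPKM, CPM per 1000 bases of exon), the CD28 ligands were unequal in the joint and near equal in culture. Cd80 was 0.239, 0.399 and 0.338 of Cd86 in the lining libraries and 0.247, 0.214 and 0.479 in the interstitial ones. In BMDM this ratio of Cd80 to Cd86 was 1.26, 1.23 and 0.988. The ratio of Cd40 to Cd86 was 1.5, 0.987 and 1.26 in lining, 0.248, 0.297 and 0.401 in interstitial and 1.36, 1.38 and 1.23 in BMDM. The lowest lining library thus had a Cd40 to Cd86 ratio above that of every interstitial library. These ratios were formed after the members' values were known and carry no test.

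Lgals9, which encodes the secreted lectin galectin-9, was at its lowest in the interstitial group (ENSMUSG00000001123, chromosome 11, 78962974 to 78984946, minus strand, 11 merged exons). It measured 324, 296 and 226 CPM in lining, 149, 119 and 127 in interstitial libraries and 225, 228 and 199 in BMDM. Every interstitial library lay below every library of the other groups, while lining C fell within the BMDM range. Lining exceeded interstitial by 1.10 ± 0.16 (edgeR adjusted p = 0.00126), and interstitial was lower than BMDM by -0.72 ± 0.15 (edgeR adjusted p = 0.00238). Those calls of Lgals9 held in each alternative fit. The lining to BMDM difference of 0.38 ± 0.15 did not pass (edgeR adjusted p = 0.0635, interval 0.04 to 0.71), but passed with DESeq2, with limma-voom and without lining C (adjusted p = 0.0392, 0.0303 and 0.0172).

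Cd274, the gene of PD-L1, is encoded on chromosome 19 (ENSMUSG00000016496, 29367455 to 29388095, plus strand, 7 merged exons). The lining libraries measured 13.1, 22.9 and 22.5 CPM, the interstitial ones 28.4, 14.1 and 51.4, with 11.6, 11 and 11 in BMDM. Interstitial E lay within the lining range and interstitial F above all other libraries. The lining to interstitial difference did not pass (-0.65 ± 0.41, edgeR adjusted p = 0.424, interval -1.54 to 0.24), nor did lining to BMDM (0.82 ± 0.41, edgeR adjusted p = 0.123), although no lining library was as low as a BMDM library. With only the 6 libraries compared, lining to BMDM passed (0.81, adjusted p = 0.0244). Interstitial macrophages were higher than BMDM by 1.47 ± 0.40 (edgeR adjusted p = 0.0107). Without interstitial F that value of Cd274 was 0.85 and the call was lost (adjusted p = 0.0779), and the lining to interstitial value was -0.08, against -0.07 with limma-voom. The 22.8 kb neighbour Pdcd1lg2, which encodes the other PD-1 ligand PD-L2, had most of its counts in the same library, with 0, 1.09 and 21.2 CPM in interstitial D to F and 0, 0 and 3.0 in lining.

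Icosl, the ligand of the inducible costimulator ICOS, was measured at 63.0, 87.0 and 103 CPM in lining, 27.0, 60.1 and 65.2 in interstitial libraries and 43.2, 42.5 and 43.2 in BMDM (ENSMUSG00000000732, chromosome 10, 78069302 to 78083913, plus strand, 7 merged exons). Interstitial D was the lowest of all libraries, and interstitial F overlapped lining A. Lining was higher than BMDM by 0.98 ± 0.27 (edgeR adjusted p = 0.0126). The call of Icosl was lost without lining B or without lining C (adjusted p = 0.0544 and 0.0603). Lining to interstitial did not pass (0.71 ± 0.28, edgeR adjusted p = 0.183, interval 0.11 to 1.32), and the value was 0.42 without interstitial D. Interstitial to BMDM did not pass either (0.27 ± 0.27, edgeR adjusted p = 0.459). Its value was 0.51 without interstitial D (adjusted p = 0.0510), 0.12 without interstitial E and 0.06 without interstitial F. It passed with A and D left out together (0.52 ± 0.12, adjusted p = 0.00909), the shallowest library of each sorted group.

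Tnfsf9, the gene of 4-1BB ligand, varied more between libraries of a sorted group than any other member (ENSMUSG00000035678, chromosome 17, 57105385 to 57107757, plus strand, 3 merged exons). The lining libraries A, B and C stood at 12.6, 60.8 and 62.7 CPM, interstitial D, E and F at 9.75, 61.1 and 134 and BMDM at 33.7, 33.2 and 37.1. The highest library was 4.97 times the lowest within lining and 13.7 times within interstitial, against 1.12 times in BMDM. Lining A and interstitial D lay under every BMDM library, and the other sorted libraries above all of them. The differences were -0.58 ± 0.81 for lining to interstitial, 0.42 ± 0.80 for lining to BMDM and 1.0 ± 0.80 for interstitial to BMDM, and none passed (edgeR adjusted p = 0.764, 0.707 and 0.349). The lining to interstitial value of Tnfsf9 changed sign without interstitial F (0.27 ± 0.68, adjusted p = 0.872) and was -1.06 without interstitial D. Interstitial to BMDM was 1.44 and passed without interstitial D (adjusted p = 0.0331), and was 0.11 without interstitial F. Lining to BMDM was 0.80 without lining A, 0.10 without lining B and 0.16 without lining C, and passed in none of these. With the shallowest library of each sorted group left out, both sorted groups were called higher than BMDM (0.80 ± 0.29 and 1.45 ± 0.28, adjusted p = 0.0486 and 0.00334).

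Several genes of the CD40 signalling list had their lowest and highest sorted libraries in the same places as Tnfsf9, with lining A and interstitial D lowest and lining C and interstitial F highest in their groups. This held for 6 of 15 genes of that list (Traf1, Traf5, Nfkb2, Rel, Tnfaip3 and Nfkbia), beside 6.07% of the 12610 tested genes, and among the other members for Icosl. Tnfaip3, which encodes the feedback inhibitor A20, had 266, 661 and 721 CPM in the lining libraries and 77.1, 570 and 805 in the interstitial ones. Nfkbia, the gene of the inhibitor I-kappaB-alpha, followed with 278, 629 and 666, and 185, 510 and 771 CPM. The NF-kappaB subunit gene Rel, chosen after its values were seen, had 68.9, 117 and 210, and 40.8, 152 and 244 CPM. BMDM lay under lining A and interstitial D for Tnfaip3 and Nfkbia (31.2 to 33.0 and 70.7 to 73.3 CPM) but above both for Tnfsf9. Lining A and interstitial D also had the lowest total counts (2194920 and 2238261), the highest being lining B and interstitial E, and the part of depth in these values was not tested. Interstitial D also had 0 counts of Xist, where lining A had 96.0 CPM, and the part of this was not tested either.

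**Figure D3:**
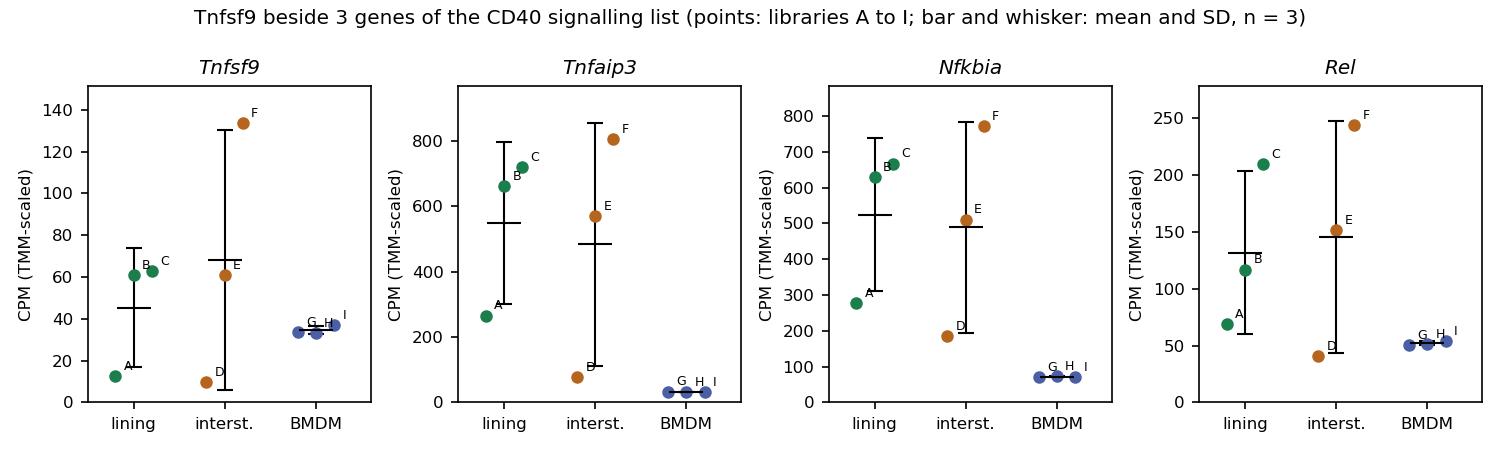
TMM-scaled CPM (y axes, linear from 0) of Tnfsf9 and of 3 genes of the CD40 signalling list by group, with libraries as lettered points and group mean and SD (n = 3) as bar and whisker. In each panel A is the lowest lining point and D the lowest interstitial point, and F, at 134 CPM for Tnfsf9, is the highest point of all.

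Per length, Lgals9 had the highest mean level of the 7 genes in every group, at 132 ± 23.6 RPKM in lining, 61.7 ± 7.04 in interstitial and 102 ± 7.42 in BMDM (SD, n = 3). In lining Cd40 followed with 41.4 ± 10.8, then Tnfsf9 with 36.9 ± 23.1 and Cd86 with 33.1 ± 4.33, whose ranges overlapped, and Icosl, Cd80 and Cd274 had 18.3, 10.7 and 5.39. In interstitial cells Cd86 (59.2 ± 17.8) and Tnfsf9 (55.5 ± 50.7) were within their spread of Lgals9. In BMDM Tnfsf9 came next (28.2 ± 1.71), then Icosl (9.30 ± 0.0936), with Cd274, Cd40, Cd80 and Cd86 between 2.31 and 3.10 RPKM. As a share of the summed RPKM of the 7 genes, Cd86 made up 10.9% to 12.9% in lining, 14.4% to 36.2% in interstitial and 1.38% to 1.81% in BMDM. Lgals9 made up 41.0% to 54.7%, 22.1% to 35.0% and 64.6% to 69.3%. Cd40 made up 11.7% to 19.4%, 5.78% to 8.98% and 1.88% to 2.22%, and Cd80 3.08% to 4.75%, 6.41% to 8.93% and 1.73% to 1.79%. For Cd274, Icosl and Tnfsf9 the shares overlapped between at least 1 pair of groups. The shares of a library sum to the whole, so they are not independent of each other. Lgals9 had its largest shares in BMDM, although its mean level was 217 CPM there and 282 CPM in lining.

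**Figure D4:**
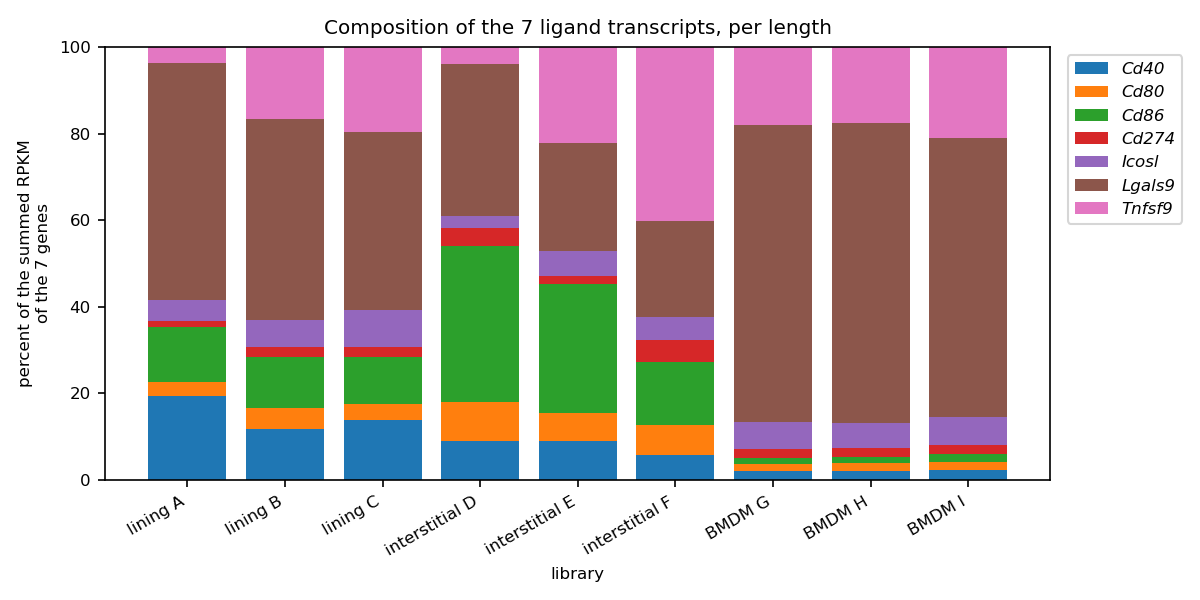
Share of each gene in the summed RPKM of the 7 genes (y axis, percent) in each of the 9 libraries (x axis), stacked by gene. The Lgals9 segment takes 64.6% to 69.3% of each BMDM bar, and the Cd86 segment is widest in interstitial D at 36.2%.

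Other ligands seen by T cells were taken from lists of the B7 and butyrophilin family, the TNF superfamily and the adhesion, nectin and galectin ligands. Of 7 further B7 and butyrophilin genes 4 were tested. In lining against interstitial, Cd276 (B7-H3) was higher by 1.85 ± 0.26 (227 ± 24.9 against 62.2 ± 26.1 CPM, edgeR adjusted p = 0.00107) and so was Vsig4, a complement receptor that restrains T cells (3.45 ± 0.33, edgeR adjusted p = 1.69e-04). Vsir, the gene of the checkpoint ligand VISTA, had 0.62 ± 0.19 and did not pass (edgeR adjusted p = 0.0800), but was called higher by DESeq2 and limma-voom. The median of the 4 was 1.23. Against BMDM, Cd276, Vsir and Vsig4 were called higher in lining (3.93, 2.46 and 10.88) and in interstitial macrophages (2.08, 1.84 and 7.43), each in every alternative fit. Pdcd1lg2 had 112 counts in interstitial and 3 in BMDM, a ratio of 135 with a counting interval of 45.0 to 665. Its edgeR call was lost without interstitial F or any BMDM library (highest adjusted p = 0.142). Vtcn1, Btn2a2 and Btn1a1 had at most 2 counts in any group.

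Among 6 further TNF superfamily ligands 3 were tested and edgeR called 0 between lining and interstitial, beside 5.79% of all tested genes. Unadjusted, 1 had an edgeR p under 0.05, while limma-voom called 0 and DESeq2 1 (Tnfsf14, lower). Tnfsf14 (LIGHT) was lower in lining than in BMDM (-3.54 ± 0.78, edgeR adjusted p = 0.00325), with its 21 lining counts all in lining B. The call of Tnfsf14 held without lining B, with 0 counts left in lining, where the fitted size has no meaning. Tnfsf18, the ligand of GITR, had 41 counts in lining, all in lining B, 118 in interstitial and 1 in BMDM. The interstitial to BMDM ratio of Tnfsf18 was 427 with a counting interval of 75.1 to 16999. The lining to BMDM ratio was 175 (29.7 to 7084), and without lining B the fitted value changed sign and did not pass (-1.24, adjusted p = 0.790). Tnfsf4 (OX40 ligand) had 0 counts in both sorted groups and 43 in BMDM, at least 3.36-fold higher than in lining and at least 3.96-fold than in interstitial, taking 3 counts over a group as the floor. Tnfsf15 likewise had 0 counts in the sorted groups and 10 in BMDM. Cd70, the ligand of CD27, which lies 38.2 kb from Tnfsf9, had 0 counts in all 9 libraries.

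In the list of adhesion, nectin and galectin ligands 14 of 15 genes were tested. Between lining and interstitial edgeR called 0, beside 5.79% of all tested genes, with 3 at an unadjusted edgeR p under 0.05. There limma-voom called 0 and DESeq2 1 (Nectin3, higher), and the list median was 0.05. Against BMDM edgeR called 4 higher and 3 lower in lining, beside 23.1% and 20.5% of all tested genes. In interstitial it called 2 higher and 3 lower, beside 23.4% and 21.3%. The list medians were 0.19 and 0.21. The called genes included Ceacam1 (lining), Cd47 and Lgals1, named after their values were seen. The adhesion ligand gene Icam1 was higher by 1.89 ± 0.32 in lining and 1.90 ± 0.32 in interstitial macrophages (edgeR adjusted p = 7.59e-04 and 7.12e-04). The galectin gene Lgals3 was lower by -2.64 ± 0.47 and -1.91 ± 0.46 (edgeR adjusted p = 0.00199 and 0.00881), and Icam2 by -3.08 ± 0.78 and -4.23 ± 0.83 (edgeR adjusted p = 0.00752 and 0.00144). Nectin3 was higher in lining (4.35 ± 0.93, edgeR adjusted p = 0.00256). Fgl1, a ligand of LAG-3, had 0 counts throughout.

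**Figure D5:**
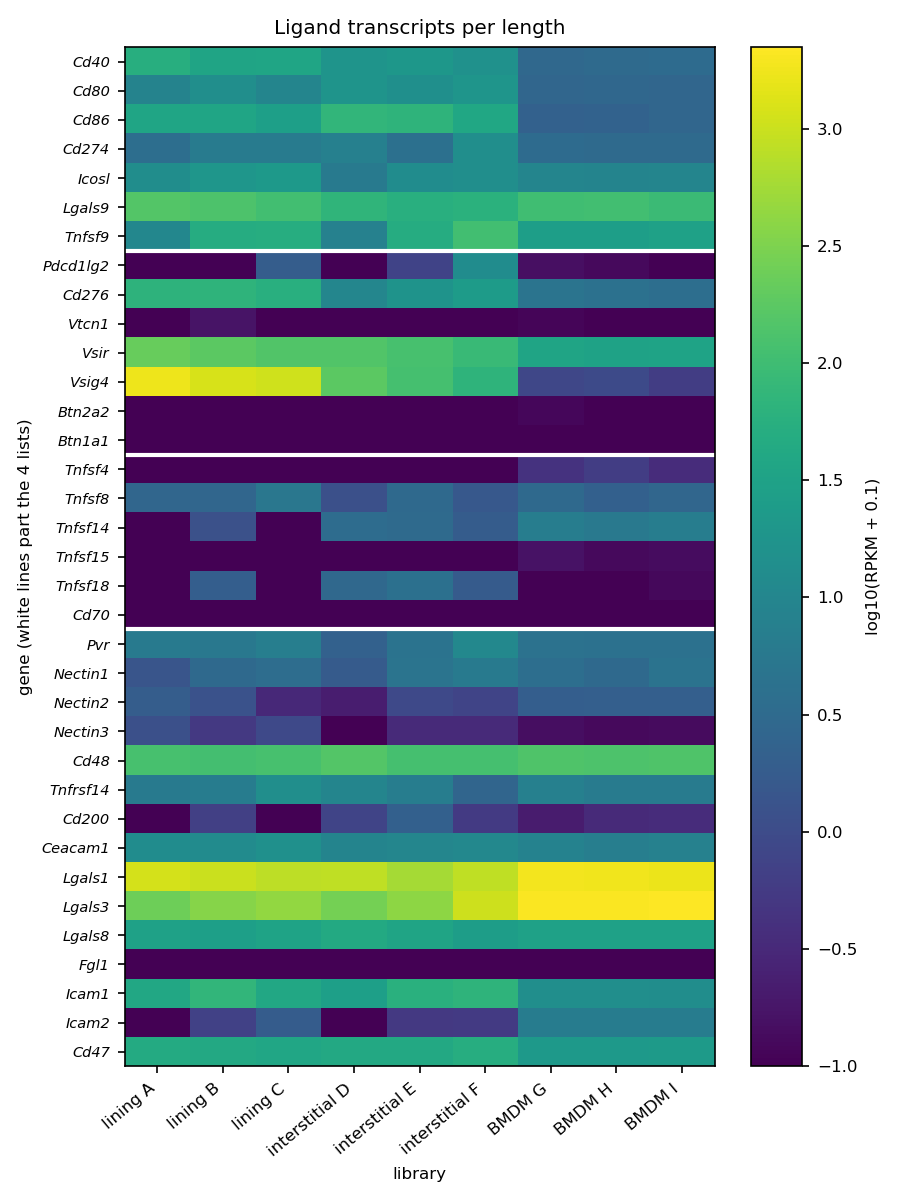
Level per length of 35 ligand genes (rows, with white lines between the 7 members, the other B7 and butyrophilin ligands, the other TNF superfamily ligands and the adhesion, nectin and galectin ligands) in 9 libraries (columns), as log10(RPKM + 0.1) on a colour scale. Vsig4 is brightest in the lining columns, Lgals3 in the BMDM columns, and Cd70, Btn1a1 and Fgl1 are at 0 in every column.

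Of 14 receptors that T cells use for these ligands 6 passed the filter on low counts. Havcr2 encodes TIM-3, the receptor of galectin-9, which myeloid cells also carry. Lining libraries had 392, 365 and 343 CPM, interstitial ones 37.7, 70.9 and 87.5, and BMDM 84.0, 79.4 and 76.6. Every lining library lay above all others, and lining was higher than interstitial by 2.47 ± 0.23 (edgeR adjusted p = 7.86e-05) and than BMDM by 2.20 ± 0.23 (edgeR adjusted p = 1.10e-05). Cd28, the receptor of CD80 and CD86, was 2.91, 5.06 and 3.0 CPM in lining, 29.3, 10.4 and 11 in interstitial libraries and 74.1, 77.9 and 93.1 in BMDM. The groups did not overlap, and lining was lower than interstitial by -1.98 ± 0.42 (edgeR adjusted p = 0.0171), a call lost without lining A or C, with limma-voom and with only the 6 sorted libraries (highest adjusted p = 0.118). Both sorted groups were lower in Cd28 than BMDM (-4.34 ± 0.42 and -2.36 ± 0.36, edgeR adjusted p = 5.74e-06 and 2.43e-04). Of the 8 T-cell markers in BMDM, Cd3d, Cd3e and Trac had 0 counts, Cd3g, Trbc2 and Cd2 0 to 2 counts per library, Lck 0.745 to 1.29 CPM and Cd5 0.546 to 0.646 CPM. Lag3 and Cd226 were called higher in both sorted groups than in BMDM (4.98 and 5.36 for Lag3, 3.45 and 5.59 for Cd226), and Icos in interstitial cells (3.96). The calls of Lag3 were lost without BMDM G or BMDM H and, in lining, without lining B (highest adjusted p = 0.0760). The lining call of Cd226 was lost without lining B or C or any BMDM library (0.0964), and that of Icos with limma-voom and without interstitial E or any BMDM library (0.245). The summed T-cell markers were also highest in interstitial libraries, where nearly all of the sum was Cd2 (9.31, 16.8 and 37.8 CPM in D, E and F) and each of the other 7 markers was at 0 to 0.637 CPM. The part of these markers in the receptor values was not tested. Ctla4 had 0 counts in every library. Pdcd1 and Cd27 had 0 in both sorted groups and 1 and 2 counts in BMDM. Cd40lg and Tigit had 0 in lining and in BMDM, with 4 counts in interstitial E and 11 in interstitial F.

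Of 15 signalling genes downstream of CD40, all tested, edgeR called 1 between lining and interstitial, beside 5.79% of all tested genes, and 8 and 10 against BMDM, beside 43.5% and 44.8%. The 1 gene was Map3k14, which encodes the NF-kappaB-inducing kinase. It was higher in lining (0.83 ± 0.18, 103 against 58.2 CPM, edgeR adjusted p = 0.0198), and the call of Map3k14 was lost with only the 6 sorted libraries and when lining B, lining C or interstitial E was dropped (highest adjusted p = 0.0655). The list median was -0.04 there. Against BMDM edgeR called 8 higher in lining and 10 in interstitial macrophages, with 0 lower in either and medians of 1.34 and 1.36. At an unadjusted edgeR p under 0.05 there were 10 and 11. Of all tested genes edgeR called 23.1% higher and 20.5% lower in lining, and 23.4% and 21.3% in interstitial macrophages. The medians of all tested genes were 0.00 and -0.01. DESeq2 called 3245 and 3404 of all 12610 genes higher and 2759 and 2769 lower. With limma-voom 3324 and 3415 were called higher and 3346 and 3713 lower. In this list DESeq2 called 10 and 11 higher and 0 lower, and limma-voom 10 and 11 higher, with 1 lower in interstitial macrophages (Traf2). They included Tnfaip3 (4.09 ± 0.84 and 3.91 ± 0.84, edgeR adjusted p = 0.00688 and 0.00767), Nfkbia (2.87 ± 0.52 and 2.77 ± 0.52), Map3k14 (2.49 ± 0.19 and 1.66 ± 0.18) and Relb, the partner of NF-kappaB2 in the noncanonical pathway (2.49 ± 0.21 and 2.57 ± 0.21).

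Regulators of surface turnover gave 0 calls of 7 between lining and interstitial with edgeR, DESeq2 and limma-voom. In all tested genes edgeR called 5.79%. Unadjusted, 1 regulator had an edgeR p under 0.05. Marchf1, the ubiquitin ligase that removes CD86 and class II molecules from the surface, was higher than in BMDM by 3.80 ± 0.19 in lining and 4.23 ± 0.19 in interstitial macrophages (edgeR adjusted p = 2.33e-08 and 1.06e-08). Cmtm6, which stabilises PD-L1 at the surface, was higher by 1.61 ± 0.13 and 1.78 ± 0.13 (edgeR adjusted p = 1.28e-06 and 5.81e-07). Marchf1 and Cmtm6 were the 2 edgeR calls of 7 in each comparison with BMDM, beside 43.5% and 44.8% of all tested genes. Transcript levels say nothing of the surface protein.

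In the list of interferon and STAT genes edgeR called 1 of 10 between lining and interstitial, Irf8, beside 5.79% of all tested genes. DESeq2 called Ifngr1 and Ifngr2 higher as well and Irf4 lower, and limma-voom Ifngr1 and Ifngr2 higher as well. Irf8 was higher in lining (0.90 ± 0.13, edgeR adjusted p = 0.00165) in each alternative fit. Against BMDM edgeR called 6 higher and 1 lower in lining, beside 23.1% and 20.5% of all tested genes. In interstitial macrophages it called 6 higher and 2 lower, beside 23.4% and 21.3%. Irf4, a factor of alternatively activated macrophages and dendritic cells, was higher by 5.23 ± 0.68 and 6.78 ± 0.71 (edgeR adjusted p = 4.04e-04 and 1.07e-04). The interferon gamma receptor gene Ifngr1 was higher by 1.80 ± 0.13 and 1.38 ± 0.13 (edgeR adjusted p = 5.49e-07 and 4.42e-06), and Irf1, an interferon-induced factor, by 1.65 ± 0.33 and 1.84 ± 0.33. Irf8 was lower in interstitial macrophages than in BMDM (-0.94).

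Tested genes with the profile most like each member were found by the root mean square difference of log2(CPM + 0.5), centred on each gene's mean, over the 9 libraries, as a description. For Cd40 the nearest were Palld (0.22), Cebpa (0.24) and Etl4 (0.24), for Cd86 Arhgef3 (0.20), Mturn (0.23) and Cyp2ab1 (0.24), and for Cd80 Prkab2 (0.19), Pdk2 (0.21) and Borcs6 (0.21). Icosl had the closest neighbour of the 7 members, Gramd1a at 0.12, followed by Adamts10 at 0.17 and Fam149a at 0.18. Lgals9 lay nearest to Cotl1 (0.13), Gm7694 (0.15) and Prag1 (0.15), and Cd274 to Gm17491 (0.18), Nod2 (0.27) and Pfkfb4 (0.29). The nearest to Tnfsf9 were D730003I15Rik (0.22), Gm36445 (0.30) and C130013H08Rik (0.31), none above a group mean of 4.16 CPM. Between members the closest were Icosl with Lgals9 (0.61) and Cd80 with Cd274 (0.69), each farther apart than any member was from its nearest gene.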

How the data were processed

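Transcripts were measured in 9 libraries of mouse macrophages (3 lining, 3 interstitial, 3 BMDM). Per the labels, 500 ng RNA went into stranded poly(A) libraries read as single 101 bp reads. The authors deposited raw read counts per gene, made with featureCounts 1.6.1 on exons of Ensembl GRCm38 release 91, reverse-stranded, with reads of several loci or genes not counted, per the file headers. STAR 2.5.4a and cutadapt 1.15 are named in the submitters' processing notes. No exon of another gene overlapped those of the 7 members. Gene length comes from the same deposited table. Symbols matched 53274 of 53465 identifiers.

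Counts were tested in R 4.3.3 with edgeR 4.0.16 (filterByExpr with minimum count 10 and total 15, TMM, quasi-likelihood fit of 3 group means over 9 libraries, 2-sided), with Benjamini-Hochberg adjustment over 12610 genes. Called means an adjusted p under 0.05. SE is the fitted log2 fold change divided by the root of its F statistic. RPKM is CPM per 1000 bases of merged exon. The fit was also run on simulated counts with differences placed in lining alone. In the real counts both sorted groups differ from BMDM, so no result here rests on that run. Alternatives were RLE factors, library totals, DESeq2 1.42.0, limma-voom (limma 3.58.1), 2 other filters, only the libraries compared, each library left out, and, added after seeing the data, the shallowest library of each sorted group left out. Members and lists were chosen with earlier results of these data known. All members are reported. Of the other lists, genes called between lining and interstitial, the 3 with the largest change per list against BMDM, and genes with 0 counts in a group are named. No labels pair the libraries. Protein sequences were not used here. One result of the listed pathway genes is not reported here.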

Additional observations from a re-analysis of the deposited data

Results flagged for a closer look

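For 3 members the difference from BMDM was unlike in lining and interstitial macrophages by the test of that difference itself, which is the lining to interstitial contrast. Cd40 differed by 1.21 on the log2 scale (3.76 in lining against 2.55 in interstitial). Cd86 differed by -0.84 (3.84 against 4.67), with the call lost in 10 of 17 alternative fits. Lgals9 differed by 1.10 (0.38 against -0.72), the value in lining not passing on its own.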

How the results depend on the processing

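Over the 7 members and 3 comparisons, 335 of 357 alternative fits kept direction and side of the threshold, 13 lost a call, 8 gained one and 1 changed sign. The sign change was Tnfsf9 in lining minus interstitial without interstitial F (0.27), within a range of -1.06 to 0.27 when each library was left out. Members called lower in lining than interstitial numbered 0 with only the 6 libraries compared and with the shallowest libraries left out. When each library was left out they numbered 1 without interstitial F and 0 in every other case. Fewer samples entered all of those fits, and the part of sample number was not tested. Tnfsf18, no member, changed sign in lining minus BMDM without lining B (-1.24), within -1.24 to 6.87. The order of the 3 group means was the same for 7 of 7 members in plain CPM. With library totals as the scale, the median of all genes in lining minus BMDM moved from 0.00 to -0.11, and 380 genes were called higher and 326 lower in lining minus interstitial, against 471 and 259 with TMM. DESeq2 called 709 and 589, and the fit of only the 6 libraries 255 and 111. In the sorted libraries depth limits genes near 0.273 to 1.45 CPM. No paired analysis was possible because the labels give each library its own letter.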
